A study of Mus musculus with 9 samples.

Results

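The proteasome genes of the aging mouse kidney were followed across the subunits of the particle. The genes were chosen by name, as every probe set with exactly 1 gene symbol made of Psm, a letter from a to g and a number, and the brightest probe set over the 9 arrays stood for a gene with several. This gave 48 of the 19938 genes measured, namely 45 genes and, set apart from them, the 3 catalytic subunits of the immunoproteasome, Psmb8, Psmb9 and Psmb10. The rule used no difference between ages. Whole kidney RNA came from wild type females of a mixed FVB/C57BL6 strain, and 4 arrays (Affymetrix Mouse Gene 1.0 ST) were made at 14 weeks of age and 5 at 96 weeks. All 9 arrays share sex, genotype, background and tissue, and the labels name no agent for either group. The methods name 5 mice at each age, each array was taken as 1 mouse, and all values are log2 expression values after the robust multi-array average, a method that corrects, scales and summarises the probes of a gene. No signal over background was given for any probe set, so that a dim gene could not be told from an absent one.

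The 26S proteasome is the protease that breaks down proteins tagged with ubiquitin. Its 20S core is a barrel of alpha rings, which gate the entrance, and beta rings, whose Psmb5, Psmb6 and Psmb7 products carry the chymotrypsin-like, caspase-like and trypsin-like active sites. The 19S cap recognises ubiquitin, removes it and unfolds the substrate with a ring of ATPases. Under interferon gamma, and in many leukocytes by default, Psmb8, Psmb9 and Psmb10 take the place of Psmb5, Psmb6 and Psmb7 in newly built cores, which are called immunoproteasomes and cut peptides for MHC class I molecules.

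The labelled tissue was checked first. Umod and Slc12a1 of the thick limb and Lrp2 and Slc34a1 of the proximal tubule had mean levels at percentiles 99.9, 99.4, 99.9 and 99.0 of all genes. They were picked from 10 kidney epithelium markers, of which the dimmest, Nphs1, was at percentile 53.8. Correlations between arrays ran from 0.979 to 0.992 over all genes, and no pair was identical. A pair of arrays stood apart in the proteasome genes. Replicate 4 at 14 weeks was the lowest of its age for 22 of 31 standard 26S subunits (those of the alpha ring without Psma8, the constitutive beta ring and the 19S cap), and replicate 4 at 96 weeks was the highest of its age for 21 of 31. In how many of all genes these arrays were lowest or highest was not counted. The array weights of limma, fitted over all genes and lower for arrays that vary more, were also the lowest of each age here. They were 0.809 for replicate 4 at 14 weeks and 0.576 for replicate 4 at 96 weeks. The reason was not tested. The main counts are therefore also given without these arrays, a setting chosen after seeing the data.

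Most proteasome genes had higher means in the old kidneys. At an adjusted p under 0.05 (limma, Benjamini-Hochberg over all genes) 14 of 48 rose, against 4.31% of all genes, and 1 of 48, Psmb11, fell, against 2.40%. The remaining 33 did not pass, the 3 immunoproteasome genes among them. The difference between ages, 96 minus 14 weeks, was positive for 42 of 48 genes. It was positive for 8645 of all 19938 genes and for 3180 of the 4985 genes in the brightest 25%. The median difference of the 48 genes was 0.18 on the log2 scale beside -0.03 over all genes. In 20 genes every old array was above every young array (7.49% of all genes), and in Psmb11 every old array was below (5.79%). Most proteasome genes are bright, so bright genes alone were counted as well. Of the 39 proteasome genes in the brightest 25% of genes 12 rose, beside 11.0% of that set, and none fell, beside 2.29%. Their median difference was 0.19, beside 0.05 over the set. In 17 of the 39 every old array was above every young one, beside 18.0% of the set, and in none every old array was below, beside 5.50%. At an unadjusted p under 0.05 by limma 25 of 48 were higher (13.3% of all genes) and 1 was lower (15.3%). At a 1.5-fold change and an unadjusted p under 0.05 by limma only Psmb5, Psmb6 and Psmg4 passed, with 1.28% of all genes passing upward. Without replicates 4 of both ages 6 of 48 rose at the adjusted threshold (Psmb2, Psmb3, Psmb5, Psmb6, Psmd8 and Psme2) and none fell, beside 273 and 80 of all 19938 genes. Leaving out 1 array at a time gave 8 to 12 genes that rose and 0 or 1 that fell, beside 374 to 751 and 154 to 384 of all genes, and Psmb2, Psmb3, Psmb5, Psmb6, Psmd8, Psmd13 and Psmg4 passed in all 9 of these fits.

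**Figure D1:**
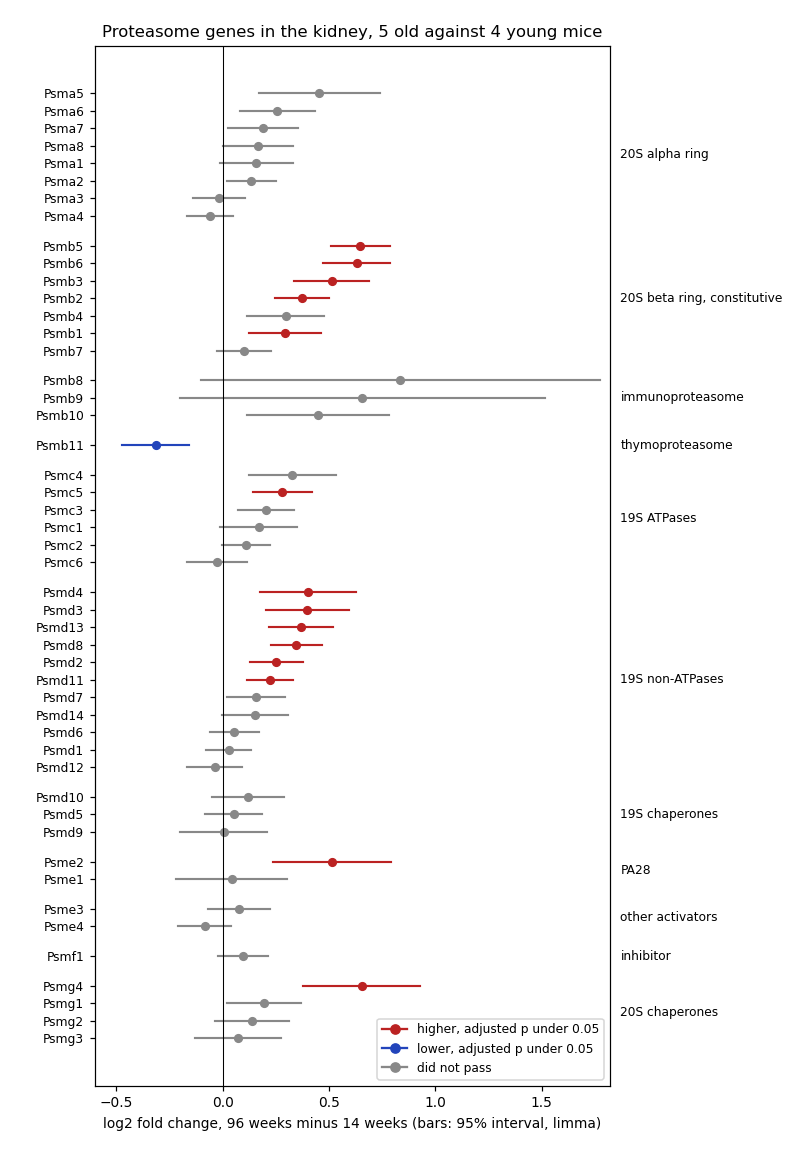
Each point is the log2 difference between 96 and 14 weeks of 1 proteasome gene, with its 95% interval by limma, grouped by the part of the particle. Red points rose and the blue point, Psmb11, fell at an adjusted p under 0.05. Psmb5, Psmb6 and Psmg4 lie farthest right among the genes that passed, while Psmb8 and Psmb9 lie farther right with intervals that reach below 0.

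The 5 genes of the 20S core that rose were all of the constitutive beta ring, which has 7 genes (4.31% of all genes rose). The median difference of this ring was 0.37, and 5 did not overlap between ages, beside 7.49% of all genes with every old array higher. Psmb5, the chymotrypsin-like subunit, was at 10.18, 10.13, 10.14 and 10.01 in replicates 1 to 4 at 14 weeks and at 10.85, 10.72, 10.63, 10.86 and 10.74 in replicates 1 to 5 at 96 weeks. The lowest old kidney lay well above the highest young one. Psmb5 rose by 0.65 log2 units (1.57-fold, SE 0.0623, adjusted p = 0.0016 by limma). Psmb6, the caspase-like subunit, was at 10.24, 10.31, 10.19 and 9.95 at 14 weeks and at 10.83, 10.85, 10.76, 10.83 and 10.76 at 96 weeks. The old arrays lay close together and far from the young arrays, of which replicate 4 was the lowest. Psmb6 rose by 0.63 log2 units (1.55-fold, SE 0.071, adjusted p = 0.0029 by limma). Psmb7, the trypsin-like subunit, did not pass. It was at 11.54, 11.51, 11.50 and 11.33 at 14 weeks and at 11.58, 11.66, 11.53, 11.53 and 11.56 at 96 weeks, and the ages overlapped. Its difference was 0.10 (SE 0.0568, limma adjusted p = 0.259), with a 95% interval of -0.02 to 0.23.

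The stretches of 150 bases before the annotated starts of Psmb5 and Psmb6 are shown because these genes had the smallest p-values of all 48, with the letters TGACNNNGC, the core bound by antioxidant response factors, in capitals. The core ended 39 bases before the start of Psmb5 and 1 base before that of Psmb6. Sequences are from RefSeq and run 5′ to 3′ along the gene.
Psmb5 (GRCm38.p6, chr14:54617996-54618145, minus strand): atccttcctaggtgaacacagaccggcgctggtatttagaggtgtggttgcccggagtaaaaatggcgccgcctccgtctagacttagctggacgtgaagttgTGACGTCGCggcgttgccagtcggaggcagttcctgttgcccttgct
Psmb6 (GRCm38.p6, chr11:70525207-70525356, plus strand): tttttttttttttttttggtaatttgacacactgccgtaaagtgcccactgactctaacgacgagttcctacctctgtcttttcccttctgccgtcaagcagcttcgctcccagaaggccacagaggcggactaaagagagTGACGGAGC
This core stood, on either strand and from 250 bases before to 50 after the start, in 12.4% of 32851 promoters and in 14.0% of the 43 promoters found for 40 of the proteasome genes. Besides Psmb5 and Psmb6 these belonged to Psmd9, Psme4, Psmd12 and Psmc6, none of which passed the test. A match describes letters and is not a bound site.

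Of the beta genes without an active site 3 of 4 rose, beside 4.31% of all genes. Psmb3 was at 9.44, 9.57, 9.40 and 9.13 at 14 weeks and at 9.87, 9.91, 9.84, 9.98 and 9.89 at 96 weeks. Its groups were apart, with young replicate 4 far below its peers, and it rose by 0.51 log2 units (1.43-fold, SE 0.0798, adjusted p = 0.0087 by limma). A dimmer probe set of Psmb3 differed by 0.71. Psmb2 was at 9.51, 9.47, 9.44 and 9.32 at 14 weeks and at 9.83, 9.74, 9.76, 9.92 and 9.80 at 96 weeks, again without overlap. It rose by 0.37 log2 units (1.29-fold, SE 0.057, adjusted p = 0.0082 by limma). Psmb1 was at 9.62, 9.61, 9.57 and 9.28 at 14 weeks and at 9.82, 9.74, 9.78, 9.92 and 9.82 at 96 weeks. All old values were above all young ones, and young replicate 4 lay apart from the other 3. Psmb1 rose by 0.29 log2 units (1.23-fold, SE 0.0761, adjusted p = 0.0467 by limma), but passed in 0 of 9 fits that left out 1 array (adjusted p 0.0644 to 0.0835 by limma). Psmb4 had a difference of 0.30 (SE 0.0821, limma adjusted p = 0.0574).

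**Figure D2:**
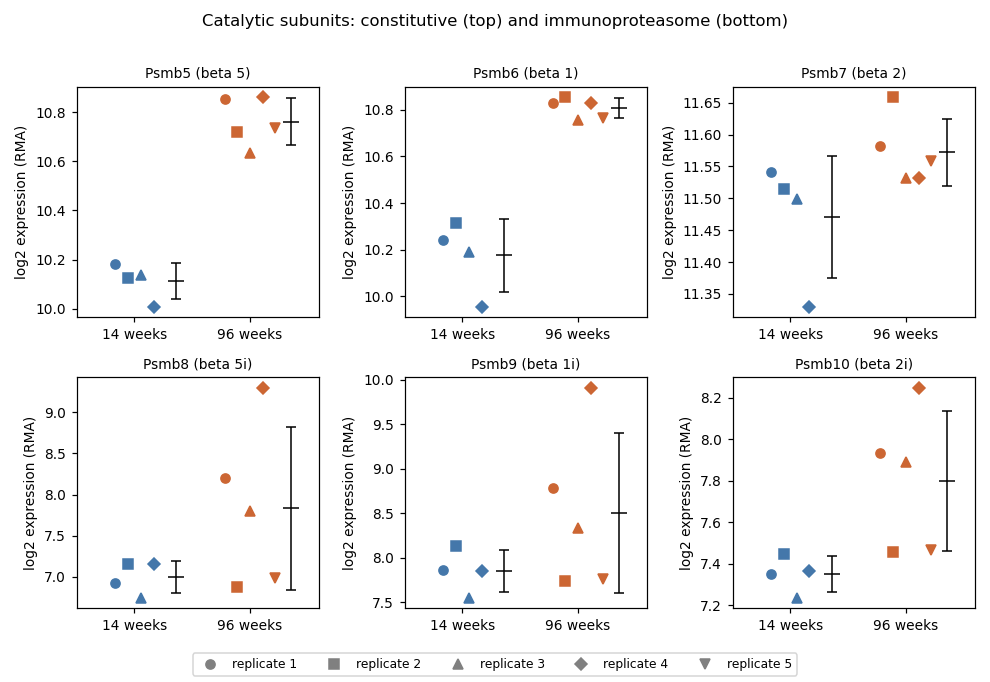
Log2 expression of the constitutive catalytic subunits (top) and of the immunoproteasome subunits that replace them (bottom), 1 marker per array, with the mean and SD of each age as bars. The vertical axes differ between panels and do not start at 0. Psmb5 and Psmb6 separate the ages, while Psmb8 and Psmb9 in old replicates 2 and 5 lie among the young values.

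In the alpha ring none of 8 genes passed at the adjusted threshold, beside 4.31% of all genes that rose and 2.40% that fell. The median difference was 0.16. At an unadjusted p under 0.05 by limma 5 were higher, the dim Psma8 among them, beside 13.3% of all genes. Psma5 had the widest difference of the ring. It was at 9.44, 9.38, 9.47 and 8.80 at 14 weeks and at 9.60, 9.71, 9.79, 9.86 and 9.67 at 96 weeks, so that every old array was above every young one. The difference was 0.45 (SE 0.128, limma adjusted p = 0.06). Young replicate 4 lay far below its peers, and without it the difference was 0.30. A dimmer probe set of Psma5 differed by 0.42, and with both averaged the gene passed (0.44, adjusted p = 0.0331 by limma), as it did with dim genes filtered out (adjusted p = 0.0469 by limma). Psma4 was the lowest of the ring by difference. It was at 11.37, 11.34, 11.32 and 11.32 at 14 weeks and at 11.33, 11.32, 11.22, 11.33 and 11.20 at 96 weeks, with overlap, and differed by -0.06 (SE 0.0482, limma adjusted p = 0.424). Psma1, Psma2, Psma6 and Psma7 differed by 0.16, 0.13, 0.26 and 0.19, and only Psma2 of them had no overlap. Psma3, measured by 3 probe sets, differed by -0.02, 0.00 and -0.02. Psma8, the alpha subunit known from testis, was dim, with a mean at percentile 8.3 of all genes, and ran from 3.60 to 3.87 at 14 weeks and from 3.79 to 4.07 at 96 weeks.

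In the ATPase ring of the 19S cap 1 of 6 genes rose, beside 4.31% of all genes, and the median difference was 0.19. Psmc5 was at 10.66, 10.66, 10.66 and 10.44 at 14 weeks and at 10.92, 10.85, 10.82, 10.99 and 10.83 at 96 weeks. Young replicate 4 lay below 3 arrays that were nearly equal, and no old array reached down to the young ones. Psmc5 rose by 0.28 log2 units (1.21-fold, SE 0.0622, adjusted p = 0.0295 by limma), and passed in 3 of 9 fits that left out 1 array (adjusted p 0.0377 to 0.0646 by limma). It did not pass without young replicate 1, 3 or 4 or without old replicate 1, 2 or 4. Psmc4 was at 8.18, 8.25, 8.24 and 7.89 at 14 weeks and at 8.54, 8.53, 8.33, 8.62 and 8.32 at 96 weeks. The ages did not overlap, and its difference, the widest of the ring, was 0.33 (SE 0.0916, limma adjusted p = 0.0586). Psmc6 had the lowest difference. It was at 9.67, 9.44, 9.62 and 9.44 at 14 weeks and at 9.58, 9.53, 9.45, 9.55 and 9.46 at 96 weeks, with full overlap, and differed by -0.03 (SE 0.0631, limma adjusted p = 0.806). Psmc1, Psmc2 and Psmc3 differed by 0.17, 0.11 and 0.20, the last 2 without overlap, and a dimmer probe set of Psmc1 by 0.19. The sign of Psmc6 turned to 0.02 without young replicate 1.

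Of the other 11 subunits of the 19S cap 6 rose, beside 4.31% of all genes, and the median difference was 0.22. Psmd8, a subunit of the lid, was at 9.38, 9.36, 9.24 and 9.19 at 14 weeks and at 9.60, 9.64, 9.59, 9.70 and 9.66 at 96 weeks. The groups were well apart, and Psmd8 rose by 0.35 log2 units (1.27-fold, SE 0.0538, adjusted p = 0.0087 by limma). Psmd13, also of the lid, was at 7.61, 7.54, 7.77 and 7.47 at 14 weeks and at 8.02, 7.94, 7.85, 7.99 and 8.01 at 96 weeks. Young replicate 3 came close to the lowest old array without reaching it. Psmd13 rose by 0.37 log2 units (1.29-fold, SE 0.0674, adjusted p = 0.0153 by limma). Psmd3, a lid subunit, was at 7.77, 7.99, 7.95 and 7.82 at 14 weeks and at 8.47, 8.45, 8.13, 8.20 and 8.16 at 96 weeks. Old replicates 1 and 2 stood above the other old kidneys, and all 5 were above the young ones. It rose by 0.40 log2 units (1.32-fold, SE 0.0882, adjusted p = 0.029 by limma) and passed in 4 of 9 fits that left out 1 array (adjusted p 0.027 to 0.0844 by limma), not without young replicate 1, 3 or 4 or old replicate 1 or 2.

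Psmd11, a lid subunit, was at 9.40, 9.38, 9.45 and 9.50 at 14 weeks and at 9.64, 9.70, 9.59, 9.71 and 9.63 at 96 weeks. Here young replicate 4 was the highest of its age, and the groups still did not overlap. Psmd11 rose by 0.22 log2 units (1.17-fold, SE 0.0488, adjusted p = 0.0273 by limma) and passed in 5 of 9 fits that left out 1 array (adjusted p 0.0316 to 0.0698 by limma), not without young replicate 1, 2 or 3 or old replicate 2. Psmd2, a scaffold of the base, was at 9.17, 9.14, 9.14 and 9.11 at 14 weeks and at 9.46, 9.52, 9.29, 9.35 and 9.33 at 96 weeks. The young arrays were almost equal, and every old array was higher. It rose by 0.25 log2 units (1.19-fold, SE 0.0568, adjusted p = 0.0305 by limma) and passed in 4 of 9 fits that left out 1 array (adjusted p 0.0277 to 0.0813 by limma), not without any 1 of the 4 young arrays or old replicate 1. A dimmer probe set of Psmd2 differed by 0.18, and with both averaged the gene did not pass (adjusted p = 0.0548 by limma). Psmd4, a ubiquitin receptor, was at 8.09, 8.04, 8.18 and 7.63 at 14 weeks and at 8.40, 8.37, 8.35, 8.50 and 8.29 at 96 weeks. Young replicate 4 was far below the other young kidneys, and no old kidney overlapped them. Psmd4 rose by 0.40 log2 units (1.32-fold, SE 0.101, adjusted p = 0.0436 by limma), and of the fits without 1 array it passed in 1 of 9, that without young replicate 3. Psmd12 had the lowest difference of this group. It was at 10.10, 9.96, 10.10 and 10.04 at 14 weeks and at 10.02, 9.95, 9.91, 10.13 and 10.04 at 96 weeks, with overlap, and differed by -0.04 (SE 0.0578, limma adjusted p = 0.675). Psmd1, Psmd6, Psmd7 and Psmd14, the last the deubiquitinase of the lid, overlapped between ages and differed by 0.03, 0.05, 0.16 and 0.15.

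**Figure D3:**
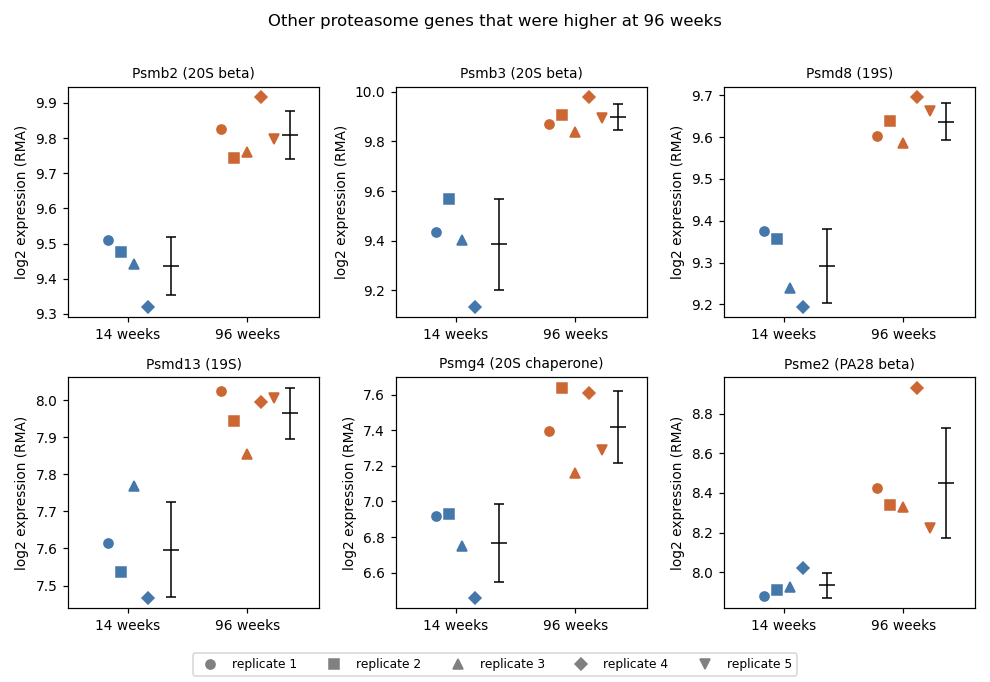
Log2 expression by array of 6 further genes that rose, 1 marker per array, with the mean and SD of each age as bars. The vertical axes differ between panels and do not start at 0. No old array overlaps a young one in any panel, and young replicate 4 is the lowest of its age in every panel but that of Psme2.

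Of the chaperones that assemble the 20S core 1 of 4, Psmg4, rose, beside 4.31% of all genes. Psmg4 was at 6.92, 6.93, 6.75 and 6.46 at 14 weeks and at 7.40, 7.64, 7.16, 7.61 and 7.29 at 96 weeks. Both ages were spread, with old replicates 2 and 4 highest and young replicate 4 lowest, and they did not overlap. Psmg4 rose by 0.65 log2 units (1.57-fold, SE 0.123, adjusted p = 0.0169 by limma), but did not pass by the methods' t-test (adjusted p = 0.0722) or without replicates 4 of both ages (limma adjusted p = 0.0694). Its partner in the same chaperone pair, Psmg3, was at 6.79, 6.27, 6.38 and 6.46 at 14 weeks and at 6.62, 6.53, 6.53, 6.56 and 6.53 at 96 weeks. The young arrays surrounded the old ones, and the difference was 0.07 (SE 0.0909, limma adjusted p = 0.602). Psmg1 and Psmg2, which form the other pair, differed by 0.19 (adjusted p = 0.143 by limma) and 0.14 (adjusted p = 0.261 by limma). None of the 3 chaperones of the 19S base passed, beside 4.31% of all genes that rose and 2.40% that fell. Psmd10, known as gankyrin, was at 9.54, 9.75, 9.53 and 9.53 at 14 weeks and at 9.66, 9.84, 9.73, 9.80 and 9.53 at 96 weeks, and differed by 0.12 (SE 0.0763, limma adjusted p = 0.312). All young kidneys but replicate 2 lay at the bottom of its range. Psmd5, the remaining one, differed by 0.05 (SE 0.0601, limma adjusted p = 0.581). Psmd9 was at 7.36, 7.25, 7.03 and 7.06 at 14 weeks and at 7.24, 7.34, 7.00, 7.06 and 7.27 at 96 weeks. Its ages covered nearly the same range, with a difference of 0.01 (SE 0.0924, limma adjusted p = 0.976) whose sign turned under several settings.

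The immunoproteasome genes did not pass the test as single genes. Psmb8, which replaces Psmb5, was at 6.93, 7.16, 6.75 and 7.15 at 14 weeks and at 8.20, 6.88, 7.80, 9.30 and 6.98 at 96 weeks. Old replicates 4, 1 and 3 were above every young kidney, and old replicates 2 and 5 lay within the young range. Psmb8 averaged 7.00 ± 0.198 (SD, n = 4) in young kidneys and 7.83 ± 0.99 (SD, n = 5) in old kidneys, a difference of 0.83 (SE 0.422, limma adjusted p = 0.216). Psmb9, which replaces Psmb6, was at 7.87, 8.14, 7.55 and 7.85 at 14 weeks and at 8.79, 7.74, 8.34, 9.91 and 7.77 at 96 weeks. The same 3 old kidneys were above the young ones, and the same 2 were among them. Psmb9 averaged 7.85 ± 0.237 (SD, n = 4) in young kidneys and 8.51 ± 0.895 (SD, n = 5) in old kidneys, a difference of 0.66 (SE 0.387, limma adjusted p = 0.278). Psmb10, which replaces Psmb7, was at 7.35, 7.45, 7.24 and 7.36 at 14 weeks and at 7.93, 7.45, 7.89, 8.25 and 7.47 at 96 weeks. Its lowest old value, in replicate 2, was just above the highest young value, and the other old kidneys followed the pattern of Psmb8. Psmb10 averaged 7.35 ± 0.0868 (SD, n = 4) in young kidneys and 7.80 ± 0.338 (SD, n = 5) in old kidneys, a difference of 0.45 (SE 0.15, limma adjusted p = 0.0944).

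Old replicate 4 carried much of these means. Without it the differences were 0.47 for Psmb8, 0.31 for Psmb9 and 0.34 for Psmb10, and without old replicates 3 and 4 they were 0.36, 0.25 and 0.27. The 3 genes ranked the old kidneys in 1 order, replicate 4 first, then 1, 3, 5 and 2. This order was found in 0.953% of all genes, in 0.742% of the brightest 25% of genes and in 2 of the other 45 proteasome genes, Psma7 and Psme1.

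To set each immunoproteasome subunit against the one it replaces, the log2 difference of both was taken within each array, and the change of this difference with age was tested by exact two-sided permutation over 126 splits of the arrays. The smallest p this design allows is 0.0079. Only the change with age is read, since levels of different probe sets are not comparable. Psmb8 minus Psmb5 was -3.25, -2.97, -3.39 and -2.85 at 14 weeks and -2.65, -3.84, -2.83, -1.56 and -3.75 at 96 weeks, so that the young arrays lay inside the range of the old ones. It changed by 0.19 (exact p = 0.77, adjusted over 3 pairs 0.968), and by -0.15 without old replicate 4. Psmb9 minus Psmb6 was -2.38, -2.18, -2.64 and -2.11 at 14 weeks and -2.05, -3.11, -2.42, -0.92 and -3.00 at 96 weeks, again with the young arrays inside the old range. It changed by 0.02 (exact p = 0.968, adjusted 0.968), and by -0.32 without old replicate 4. It was also negative without young replicate 3 (-0.08) or old replicate 1 (-0.04). Psmb10 minus Psmb7 was -4.19, -4.07, -4.26 and -3.97 at 14 weeks and -3.65, -4.20, -3.64, -3.28 and -4.09 at 96 weeks. Old replicates 1, 3 and 4 were above all young arrays, and the change was 0.35 (exact p = 0.127, adjusted 0.381). It was 0.23 without old replicate 4 and 0.14 without old replicates 3 and 4.

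The promoters of Psmb8 and Psmb9 are shown because these genes varied together among the old kidneys. Neither the antioxidant response core nor the interferon response core, GAAA repeated after a gap of 2 bases, was found on either strand in their windows, which are therefore in lower case throughout.
Psmb8 (GRCm38.p6, chr17:34198045-34198194, plus strand): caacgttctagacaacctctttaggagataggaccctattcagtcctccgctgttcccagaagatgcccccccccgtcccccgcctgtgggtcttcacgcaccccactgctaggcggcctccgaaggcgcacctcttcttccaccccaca
Psmb9 (GRCm38.p6, chr17:34187331-34187480, minus strand): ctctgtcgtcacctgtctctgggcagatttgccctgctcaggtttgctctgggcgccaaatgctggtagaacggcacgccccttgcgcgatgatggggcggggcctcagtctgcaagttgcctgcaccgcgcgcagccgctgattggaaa
The interferon response core stood in 3.44% of all promoters and in 11.6% of those of proteasome genes, namely Psmd4, Psmd9, Psmb3, Psmg4 and Psme1. The window of Psmb9 shares 275 of its 300 bases with that of Tap1, a subunit of the peptide transporter, which is read from the opposite strand. In the RefSeq gene order Psmb9, Tap1, Psmb8 and Tap2 follow each other within the MHC region.

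The averages of leukocyte markers and of interferon genes moved with the immunoproteasome genes, though not every member did. Centred on each gene's mean over the 9 arrays, Psmb8, Psmb9 and Psmb10 averaged -0.38, -0.18, -0.58 and -0.30 on the log2 scale at 14 weeks and 0.55, -0.40, 0.25, 1.39 and -0.35 at 96 weeks. The 12 leukocyte markers averaged -0.39, -0.37, -0.46 and -0.46 at 14 weeks and 0.50, -0.31, 0.49, 1.26 and -0.26 at 96 weeks, so that old replicates 4, 1 and 3 were again the highest. Of these markers 2 of 12 rose, beside 4.31% of all genes. They were Csf1r of macrophages, by 0.45 (adjusted p = 0.0153 by limma), and Tyrobp of myeloid and natural killer cells, by 1.17 (adjusted p = 0.0397 by limma, passing in 2 of 9 fits without 1 array). Csf1r did not follow the average of the list, at 8.63, 8.78, 8.33, 8.50 and 8.61 in old replicates 1 to 5. All 12 had a positive difference, beside 8645 of all 19938 genes, with a median of 0.85. The pan-leukocyte gene Ptprc differed by 1.23 (SE 0.521, limma adjusted p = 0.156), and the dimmest marker, Cd79a of B cells, had a mean at percentile 15.4 of all genes. Uncentred, the 12 markers averaged 6.42 to 6.51 at 14 weeks and 6.57 to 8.14 at 96 weeks. The order of old kidneys seen in Psmb8 was shared by 4 of 12 leukocyte markers, Cd3e, Cd8a, Cd79a and Ms4a1, beside 0.953% of all genes. The part of leukocytes in the immunoproteasome values was not tested, and in whole tissue more cells of a type and more RNA per cell cannot be told apart. For the 31 standard subunits the centred means were -0.08, -0.11, -0.09 and -0.26 at 14 weeks and 0.13, 0.10, 0.06, 0.17 and 0.06 at 96 weeks. In these means every old kidney was above every young kidney. The part of leukocytes in the values of the standard subunits was not tested either.

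**Figure D4:**
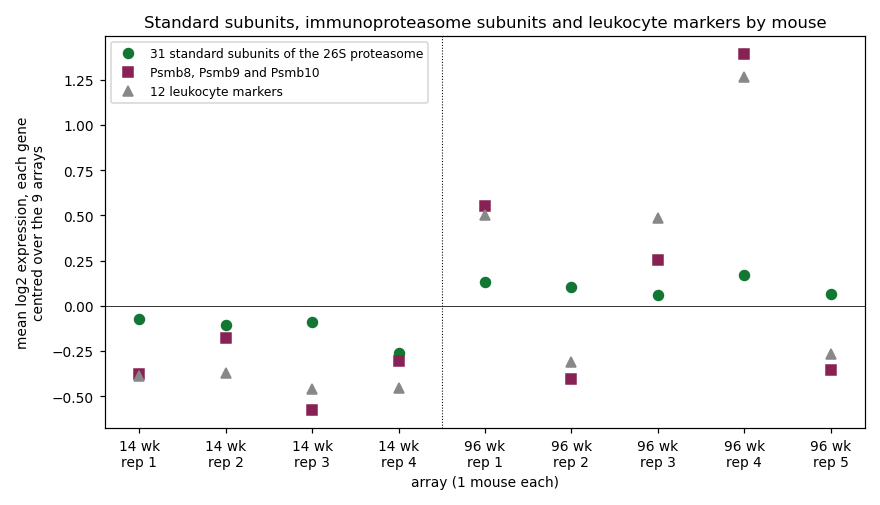
Mean log2 expression by array, each gene centred over the 9 arrays, of the 31 standard 26S subunits (circles), of Psmb8, Psmb9 and Psmb10 (squares) and of 12 leukocyte markers (triangles). The circles lie between 0.06 and 0.17 in all 5 old kidneys, while squares and triangles are high in old replicates 1, 3 and 4 and at or below -0.26 in replicates 2 and 5.

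Of 8 genes of the interferon gamma response, with Ifng, the gene of interferon gamma itself, on the list, none passed in limma. Of all genes 4.31% rose and 2.40% fell. At an unadjusted p under 0.05 by limma 1 was higher, beside 13.3% of all genes. This was Cxcl10, with a difference of 1.24 (SE 0.426, limma adjusted p = 0.101). Their centred means were -0.27, 0.00, -0.30 and -0.15 at 14 weeks and 0.36, -0.50, 0.05, 1.19 and -0.39 at 96 weeks. Old replicate 4 was again the highest and replicates 2 and 5 the lowest of all 9. The order of old kidneys seen in Psmb8 was shared by 3 of the 8, Cxcl9, Irgm1 and Iigp1, beside 0.953% of all genes. Pomp and Irf1 of other lists also had it, and 0 of 8 genes of MHC class I processing did. Gbp3 of the interferon list went otherwise, at 8.72, 8.86, 8.16, 9.16 and 8.56 in old replicates 1 to 5. Among 8 genes of MHC class I processing Calr, a chaperone of the peptide-loading complex, rose by 0.45 (adjusted p = 0.0223 by limma, up to 0.0634 without 1 young array). The other 7 did not pass, and of all genes 4.31% rose. Tap1, next to Psmb9, was at 6.39, 6.52, 6.13 and 6.34 at 14 weeks and at 6.88, 6.39, 6.81, 7.69 and 6.31 at 96 weeks, with a difference of 0.47 (SE 0.24, limma adjusted p = 0.221), and of 0.25 without old replicate 4. Its old replicates 4, 1 and 3 were above the young range, as for Psmb9.

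The interferon-inducible PA28 cap is built from Psme1 and Psme2, and the latter rose. Psme2 was at 7.88, 7.91, 7.92 and 8.02 at 14 weeks and at 8.43, 8.34, 8.33, 8.93 and 8.22 at 96 weeks. All old kidneys were above all young ones, and replicate 4 stood apart at the top. Psme2 rose by 0.52 log2 units (1.43-fold, SE 0.125, adjusted p = 0.0384 by limma) and passed in 3 of 9 fits that left out 1 array (adjusted p 0.0105 to 0.0882 by limma), not without any 1 of the 4 young arrays or old replicate 1 or 2. A further probe set, listed for both Psme2 and its near copy Psme2b, was not used, and signal of the pair may not be separate. Psme1 was at 10.47, 10.61, 10.32 and 10.77 at 14 weeks and at 10.65, 10.35, 10.63, 10.86 and 10.42 at 96 weeks. The ages overlapped, with replicate 4 the highest at both, and the difference was 0.04 (SE 0.117, limma adjusted p = 0.831). It turned to -0.03 without young replicate 3 or without old replicate 4. The difference between the 2 genes was not tested. Neither activator of the nuclear proteasome passed. Psme3 was at 9.14, 9.13, 9.17 and 9.18 at 14 weeks and at 9.12, 9.18, 9.15, 9.43 and 9.28 at 96 weeks, and differed by 0.08 (SE 0.0655, limma adjusted p = 0.439). Psme4 was at 10.56, 10.53, 10.60 and 10.56 at 14 weeks and at 10.33, 10.53, 10.46, 10.54 and 10.53 at 96 weeks, and differed by -0.09 (SE 0.0553, limma adjusted p = 0.32). Psmf1, the inhibitor PI31, was at 6.89, 6.97, 7.00 and 6.99 at 14 weeks and at 7.02, 7.15, 6.99, 7.01 and 7.13 at 96 weeks, with a difference of 0.10 (SE 0.0529, limma adjusted p = 0.247). In each of these 3 genes the ages overlapped.

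Psmb11, the beta subunit of the proteasome of cortical thymic epithelium, was the gene that fell. It was at 5.96, 6.11, 6.22 and 6.08 at 14 weeks and at 5.66, 5.79, 5.94, 5.76 and 5.73 at 96 weeks, and all old values were below all young ones. Psmb11 fell by 0.32 log2 units (SE 0.07, adjusted p = 0.0292 by limma). Its mean lay at percentile 37.0 of all genes, and it passed in 2 of 9 fits that left out 1 array (adjusted p 0.018 to 0.0728 by limma), those without young replicate 1 or old replicate 3.

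Of 14 genes that work with the proteasome but carry other names 1, Pomp, rose, beside 4.31% of all genes. Pomp, the maturation factor of the 20S core, was at 11.22, 11.18, 11.14 and 11.09 at 14 weeks and at 11.47, 11.30, 11.38, 11.47 and 11.34 at 96 weeks, without overlap. It rose by 0.23 log2 units (1.18-fold, SE 0.0545, adjusted p = 0.034 by limma), and of the fits without 1 array it passed in 1 of 9, that without old replicate 2. Sem1, a small subunit of the 19S lid, had a difference of 0.40 (SE 0.138, limma adjusted p = 0.102), and of 0.24 without young replicate 4. Among 5 genes that control proteasome transcription none rose, beside 4.31% of all genes, and 1 fell, beside 2.40%. Nfe2l1, known to drive proteasome genes when the protease is blocked, differed by 0.16 (SE 0.0582, limma adjusted p = 0.121), with every old array above every young one, and Nfe2l2 by -0.04 (SE 0.0594, limma adjusted p = 0.658). Nlrc5, an activator of MHC class I genes, fell by 0.34 (adjusted p = 0.0306 by limma), but differed by -0.07 (adjusted p = 0.639 by limma) when its probe sets were averaged. It did not pass without young replicate 2, 3 or 4 or old replicate 1, 2 or 5. Irf1, an interferon-induced factor, was at 6.73, 7.41, 6.98 and 6.88 at 14 weeks and at 7.58, 6.92, 7.26, 8.08 and 6.96 at 96 weeks, with old replicates 4 and 1 the highest, and differed by 0.36 (SE 0.232, limma adjusted p = 0.317).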

How the data were processed

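Kidney RNA was reverse transcribed and amplified, and the cDNA was labelled with biotin and hybridised to 9 Affymetrix Mouse Gene 1.0 ST arrays. These were grouped by the age in the labels into 4 young and 5 old samples. Per the labels and methods, the authors used Affymetrix Power Tools 1.12.0 to run RMA with quantile normalization, and deposited log2 expression per probe set. The genome build of the array annotation is not given in the sources used here. Of 35557 probe sets 21789 carried 1 symbol, 1621 several and 12147 none. Only those with 1 symbol were used, and the brightest probe set per gene gave 19938 genes. Of the genes in the lists 15 had no probe set of their own and were not analysed here.

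The test between ages was lmFit with eBayes from limma 3.58.1 (R 4.3.3), with Benjamini-Hochberg adjustment over all genes and no filter on dim genes. The number of arrays limits the precision, and where arrays are not separate animals p-values measure only their spread. On simulated arrays of 19938 genes this test recovered 28.4% of 67 genes given a log2 change of 0.3, 65.7% of 67 given 0.5 and 95.5% of 66 given 1. No other genes were changed there, while 860 rose and 479 fell in the reported fit. The adjustment depends on how many genes change, so these shares hold for the simulation only. Members, lists and tests were chosen with earlier results of these data known. Values by array are given for catalytic and PA28 genes, for genes that passed, and for the highest and lowest difference in each part of the particle. From other lists passing genes are named, or the gene with the smallest p, and others named were chosen after their values were seen. Alternatives covered the methods' t-test, moderation, array weights, a dim-gene filter, scaling, probe sets averaged, a replicate block and left-out arrays. Within-array differences were tested with scipy 1.17.1 in Python 3.11.15. Promoters are RefSeq windows on GRCm38.p6.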

Additional observations from a re-analysis of the deposited data

Results flagged for a closer look

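In 5 of 68 groups of values 1 array lay far from the others of its age by Dixon's gap criterion, which chance meets in about 1 in 20 groups. In 3 of these it was replicate 4 at 14 weeks, at 10.44 for Psmc5, 9.28 for Psmb1 and 8.80 for Psma5, each the lowest of its age. Without that array the differences were 0.23 (adjusted p = 0.0646 by limma) for Psmc5, 0.21 (adjusted p = 0.0777 by limma) for Psmb1 and 0.30 (adjusted p = 0.0559 by limma) for Psma5. Replicate 2 at 14 weeks was the highest of its age for Psmd10, at 9.75. Replicate 4 at 96 weeks was the highest of its age for Psme2, at 8.93, and without it Psme2 differed by 0.40 (adjusted p = 0.0105 by limma).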

How the results depend on the processing

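All 14 proteasome genes that rose kept a positive difference under every alternative run. The median difference of the 48 genes, 0.18 in the reported fit, was 0.13 after repeated quantile normalization and 0.14 after cyclic loess. It reached 0.21 without old replicates 3 and 4. The number that passed was 7 by the methods' t-test, 8 after repeated quantile normalization, 8 after cyclic loess, 3 with the replicate number as a block and 6 without replicates 4 of both ages, beside 273, 484, 562, 279 and 273 of all genes, and ran from 8 to 12 without 1 array. The number that fell was 0 under each of these 5 settings, beside 94, 505, 379, 89 and 80 of all genes, and ran from 0 to 1 without 1 array. With dim genes filtered out 18 rose, beside 1074 of all genes kept, the further ones being Psma5, Psmb4, Psmc3 and Psmc4. In that fit 1 proteasome gene fell, beside 506 of all genes kept. The genes called with the block were Psmb5, Psmb6 and Psme2, and old replicate 5, with no young array of its number, adds nothing to that fit. At the study's own threshold of fold and unadjusted p the methods' t-test called 3 of 48 higher and 0 lower, beside 196 and 61 of all genes. The labels do not say whether the replicate numbers pair the samples. Over all genes, deviations of same-numbered arrays correlated at 0.08, 0.02, -0.04 and 0.01, and 1 of 4 young arrays was closest to its own number. Such values cannot tell whether same-numbered arrays share an effect on some genes. The cause of the changes in the number of genes that passed was not tested.

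Signs turned for Psme1 under repeated quantile normalization (-0.0199) and without old replicates 3 and 4 (-0.0688), for Psmd9 under repeated quantile normalization (-0.0537), cyclic loess (-0.0229), the block (-0.0166) and without replicates 4 of both ages (-0.0027), and for Psme3 under repeated quantile normalization (-0.0028). Without 1 array Psme1 ran from -0.0327 to 0.117, Psmc6 from -0.0594 to 0.0165 and Psmd9 from -0.0444 to 0.0679. The within-array change of Psmb9 minus Psmb6 turned to -0.0044 under repeated quantile normalization and to -0.39 without old replicates 3 and 4, and that of Psmb8 minus Psmb5 to -0.30 without old replicates 3 and 4. Without replicates 4 of both ages these were -0.25 and -0.0674. Without 1 array the changes ran from -0.32 to 0.23 and from -0.15 to 0.42. The cause was not tested. Over all genes 860 rose and 479 fell in the reported fit. Dim genes had no background value, which limits Psma8 and Psmb11.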

Other observations

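None of 10 kidney epithelium markers passed at an adjusted p under 0.05 in limma. Of all genes 4.31% rose and 2.40% fell at this threshold. At an unadjusted p under 0.05 by limma 1 marker was lower, beside 15.3% of all genes. This was Calb1 of the distal convoluted tubule, with a difference of -0.47 (SE 0.174, limma adjusted p = 0.12). The median difference of the 10 markers was 0.05 on the log2 scale. None of 4 endothelium markers passed in limma at either threshold. At the unadjusted one 13.3% of all genes were higher and 15.3% lower. Pecam1, an adhesion molecule of vessels, differed by 0.14 (SE 0.0756, limma adjusted p = 0.257). Of the ubiquitin genes with a probe set of their own, Uba6, an activating enzyme, differed by 0.12 (SE 0.0677, limma adjusted p = 0.247).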
